A study of Mus musculus with 6 samples.

Results

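Cables1 and 9 genes that control the G1 phase of the cell cycle were followed in NKp46+ lymphocytes of spleen, intestine and skin. They were taken by name from the array annotation: every probe whose symbol is Cables1, Cdkn1a, Cdkn1b, Cdkn2c, Cdkn2d, Ccnd2, Ccnd3, Ccng2, Cdk6 or Cdk4, which gives 10 of 31484 gene names and 20 of 46643 probes. Cables1 was chosen by its signal in intestine against spleen and skin in these same arrays, so its values are given as a description with no test. The cells were sorted as CD45+ CD3- Nkp46+ and, in the labels' spelling, NK11+ from male RAG-2-KO mice of the C57BL/6 strain at 12 weeks of age. One group came from the spleen, one from the lamina propria of the gut (intestine) and one from the skin, and each group has 2 arrays, replicates I and II. The RAG-2 deficiency was shared by all groups, so none of the mice could form T or B cells and no wild-type group is among the samples analysed here. RNA was labelled and hybridised to Illumina mouse BeadChips, with all replicates I on slide 1 and all replicates II on slide 2. Nothing in the labels says that replicates came from separate mice or sorts, so every p-value here measures the spread between these arrays, which may be technical.

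In G1 a cell decides whether to copy its DNA. D-type cyclins bind the kinases Cdk4 and Cdk6, and the active pairs phosphorylate the retinoblastoma protein, which frees the E2F factors that switch on S phase genes. The INK4 inhibitors p18 (Cdkn2c) and p19 (Cdkn2d) bind Cdk4 and Cdk6 directly, whereas the CIP/KIP inhibitors p21 (Cdkn1a) and p27 (Cdkn1b) act on cyclin-bound kinases, above all those with Cdk2. Cables1 encodes an adaptor that links cyclin-dependent kinases to the Abl and Wee1 kinases, and p21, a target of the p53 tumour suppressor, is a general brake on proliferation.

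The 250 bases before annotated start sites, read from RefSeq (build GRCm38.p6), are shown first for the genes on which the results turn. The motifs were counted in 11 windows of 8 of the 10 genes. Cables1 was left out of this count whether or not RefSeq held a start site for it, and no window was matched to Ccnd2. The Cdkn1a windows are shown because this inhibitor had the largest difference of the 9 tested genes, those of Ccng2, Ccnd3 and Cdk4 because these are among the genes that kept their calls in intestine against skin under every alternative tried. Sequences run 5′ to 3′ on the plus strand. Capitals mark 6 motifs, searched on both strands. GGGCGG is the GC box bound by Sp1 and related factors. CCAAT is the box bound by NF-Y. CACGTG is the E-box of Myc and related factors. TGACG is a core of the cyclic AMP response element. TGTTTAC is a forkhead motif. ACATGT is the core of p53 sites and was added after the Cdkn1a sequence was seen.
Cdkn1a, first start site, chr17:29090729-29090978: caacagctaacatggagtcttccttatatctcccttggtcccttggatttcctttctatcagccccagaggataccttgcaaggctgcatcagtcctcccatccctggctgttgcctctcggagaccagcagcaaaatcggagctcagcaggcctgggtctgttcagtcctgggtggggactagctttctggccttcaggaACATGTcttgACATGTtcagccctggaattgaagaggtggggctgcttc
Cdkn1a, second start site, chr17:29093519-29093768: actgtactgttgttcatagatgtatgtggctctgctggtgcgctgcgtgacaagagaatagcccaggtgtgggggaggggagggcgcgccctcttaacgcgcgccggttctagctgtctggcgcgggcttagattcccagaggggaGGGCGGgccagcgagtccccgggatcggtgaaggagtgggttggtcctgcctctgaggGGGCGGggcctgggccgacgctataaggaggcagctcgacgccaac
Ccng2, chr5:93267323-93267572: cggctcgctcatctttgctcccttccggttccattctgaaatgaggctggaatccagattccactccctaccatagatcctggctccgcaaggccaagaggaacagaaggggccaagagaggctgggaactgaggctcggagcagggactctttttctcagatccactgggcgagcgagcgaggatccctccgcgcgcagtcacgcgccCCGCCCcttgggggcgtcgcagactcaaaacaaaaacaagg
Ccnd3, first start site, chr17:47504801-47505050: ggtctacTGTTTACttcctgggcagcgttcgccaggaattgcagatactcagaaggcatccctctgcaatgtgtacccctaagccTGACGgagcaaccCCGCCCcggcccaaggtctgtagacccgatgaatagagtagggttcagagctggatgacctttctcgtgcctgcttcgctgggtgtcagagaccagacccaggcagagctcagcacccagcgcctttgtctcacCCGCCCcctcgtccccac
Cdk4, chr10:127063285-127063534: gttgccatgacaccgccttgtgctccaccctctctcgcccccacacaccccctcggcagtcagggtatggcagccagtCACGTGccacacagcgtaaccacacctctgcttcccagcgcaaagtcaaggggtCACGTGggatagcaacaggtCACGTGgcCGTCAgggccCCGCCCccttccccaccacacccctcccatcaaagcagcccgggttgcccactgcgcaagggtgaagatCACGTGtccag

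The first Cdkn1a window held 2 copies of ACATGT, 4 bases apart, no GC box, and none of the other motifs. Over all 32851 RefSeq windows of this length, 4.58% held the motif and 0.247% held at least 2 copies. The second Cdkn1a window, at the more downstream start, held 2 GC boxes. A GC box was present in 8 of the 11 windows of these genes and in 32.7% of all windows. The Cdk4 window held 4 copies of CACGTG, a number that 7 of all windows (0.0213%) matched or exceeded, while 6.02% of windows held at least 1. The cut-offs of 2 and 4 copies were set to the counts seen in these windows, so their shares are a description only. TGTTTAC was found in the first Ccnd3 window alone among the 11 and in 3.17% of all windows. CCAAT was in 3 of the 11 windows and 33.8% of all, and TGACG in 4 and in 17.8%. These matches describe letters in a window and carry no information on binding in these cells.

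Signals are the deposited bead intensities, already background-subtracted and scaled to one mean on every array. Levels can be read across arrays for one probe but not between probes. Pairs of signals given without a tissue follow the order spleen, intestine, skin, with replicate I first. On the arrays, 32.6% to 39.7% of probes were detected (detection p under 0.01), with the spleen arrays at the top of that range. Of the 20 probes, 16 were detected on both arrays of at least 1 tissue, and 14 of these on all 6 arrays. The 4 that were not are the second probes of Cables1, Cdkn1b and Ccnd3 and the fourth of Ccnd2. All 10 genes entered the fit through at least 1 probe, and 5 genes had several. Differences are given on the quantile-normalised log2(signal + 16) scale with their standard errors, n = 2 arrays per tissue, and a fold on that scale understates the change of dim probes. A gene is called where limma's p-value, adjusted by Benjamini-Hochberg over 13455 genes, is under 0.05.

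Defining markers of other cells were read on the same arrays. Of 11 NK cell markers, 9 or 10 were detected in each tissue, Ncr1 (NKp46) and Klrb1c (NK1.1) among them, with summed signals between 21311 and 22993 on the spleen and skin arrays, and 13026 and 15001 on those of intestine. Gzma, a granzyme, was dim in spleen (17.4 and 13.2), detected in skin on the second array only (9.18) and not detected in intestine. Gzmb was not detected in any tissue. Cd3e was not detected on any array, although 4 to 6 of the 10 T cell markers were. That list summed to 839 and 732 on the spleen arrays, 926 and 1114 on those of intestine, and 752 and 838 on those of skin. Cd3g was highest in intestine (312 and 597, against 109 and 81.4 in spleen and 54.6 and 59.4 in skin), as was Trat1 (74.8 and 80.1). Cd8a was detected in intestine alone (6.05 and 23.3), whereas Cd8b1 was lowest there (134 and 148). Erythroid markers summed to 12380 and 18251 on the spleen arrays, 3365 and 2582 on those of intestine, and 1383 and 1141 on those of skin, with Klf1 and Epb42 undetected throughout. The intestine sum was mostly Car2 (1899 and 1671, against 607 and 569 in spleen), and Tfrc was also higher there than in spleen. The globin gene Hbb-b1 gave 7318 and 10873 in spleen, and was alike in intestine (673 and 428) and skin (628 and 494). Macrophage and monocyte markers summed to 712 and 747 in spleen, where 11 of 14 were detected, against 361 to 483 elsewhere, where 2 or 3 were. A list of group 3 innate lymphoid cell markers summed to 610 and 676 on the spleen arrays, 2285 and 2301 on those of intestine, and 375 and 296 on those of skin. The intestine sum was mostly Kit (1404 and 1370, against 282 and 291 in spleen) and Il7r (643 and 656, against 244 and 292). Of the same list, Il22, Il23r, Il17f and Ccr6 were detected in no tissue. Mast cell markers summed to 803 and 697 on the spleen arrays, 53.9 and 67.6 on those of intestine, and 221 and 160 on those of skin, with Cpa3 undetected throughout. That order is the order of 1 gene, Cma1, with 798 and 691, 19.2 and 29.0, and 200 and 134. The other 7 markers were undetected in spleen, while Hdc was detected on both arrays in intestine alone and Tpsb2 in skin alone. Gut epithelium, keratinocyte and fibroblast lists reached summed signals of 141 at most on any array, with Epcam, Krt5 and Col1a1 undetected. Other members of these lists were detected on both arrays of a tissue. Krt18, Lgals4, Apoa1 and Sfn were so in every tissue, Muc2 and Dpt in intestine and skin, and Dcn in skin (34.2 and 17.1). These shifts accompany the differences between tissues below, and their part in them was not tested. In such bulk RNA, fewer cells of a type and less RNA per cell cannot be told apart.

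In intestine, 2 of the 9 genes other than Cables1 rose over spleen (Cdkn1a and Ccng2), 5 fell (Cdkn2c, Cdkn2d, Ccnd2, Ccnd3 and Cdk4) and 2 passed in neither direction (Cdkn1b and Cdk6). Over all genes tested, 49.3% were called, 21% higher and 28.3% lower, so calls were common throughout this comparison. The median difference of the 9 was -0.53, against -0.04 over all genes. In skin, Cdkn1a and Cdkn2c rose over spleen and 7 genes were not called, against an overall share of 24.5%, with a median of -0.19 against 0.00. Both of these calls were lost without any 1 of the 4 spleen and skin arrays. Between intestine and skin, Cdkn1a, Cdkn1b and Ccng2 were higher in intestine, Cdkn2c, Ccnd2, Ccnd3 and Cdk4 lower, and Cdkn2d and Cdk6 not called, against 39.3% of all genes, with a median of -0.37 against -0.08. The arrays of the groups did not overlap for 9, 8 and 9 of the 9 genes in these comparisons, and for 77.8%, 71.7% and 65.9% of all genes. The scaling of the arrays moves the balance of directions: in intestine against spleen 42.5% of all calls were higher with quantile normalisation, 25.7% with the deposited scaling alone and 58.5% with median scaling, as the median of all genes moved from -0.04 to -0.25 and 0.11. In skin against spleen these shares were 53.4%, 36.1% and 71.2%, and in intestine against skin 41.8%, 30.4% and 43.7%.

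**Figure D1:**
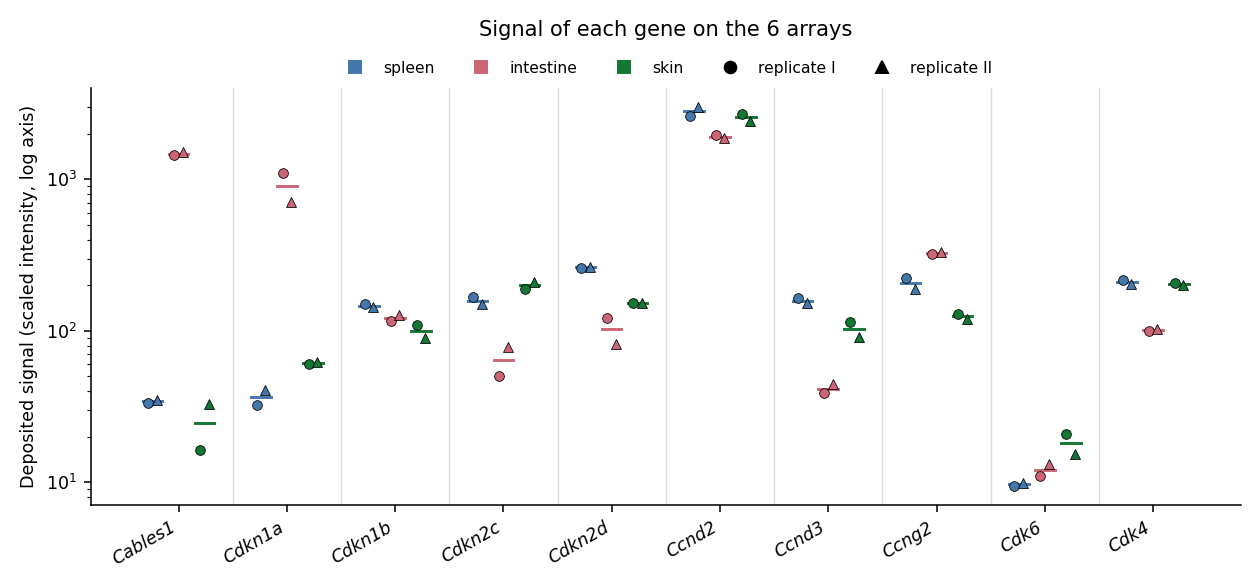
Deposited signal (scaled intensity, log axis) of the probe that stands for each gene on the 6 arrays; circles are replicate I, triangles replicate II, and bars the mean of the 2 arrays of a tissue. Levels compare within a gene only. Cables1 and Cdkn1a stand at 712 or above in intestine and at 61.9 or below on the other 4 arrays.

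**Figure D2:**
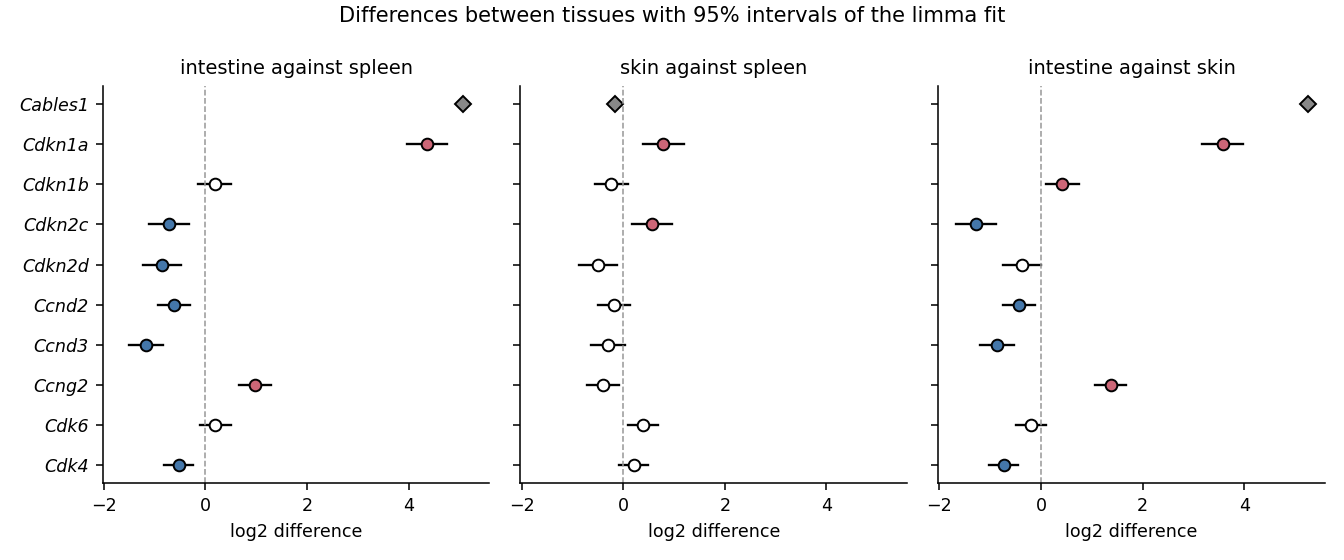
Difference in log2(signal + 16) between tissues from the limma fit, with 95% intervals; red genes were called higher, blue lower and white were not called. Cables1 is a grey diamond with no interval because it was chosen for its rise in intestine. Outside Cables1 and Cdkn1a, the differences lie between -1.28 and 1.37.

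Cables1, the adaptor, was bright in intestine alone. Its first probe (identifier 2190504) read 33.5 and 34.9 on the spleen arrays, 1444 and 1513 on those of intestine, and 16.2 and 32.8 on those of skin, and was detected on all 6 arrays. Both intestine arrays thus stood far above the other 4, whereas skin spread more than spleen and overlapped it on the normalised scale. The difference between intestine and spleen was 5.08 ± 0.20, a 33.8-fold change that ranked 2 of 13455 genes, and that between intestine and skin 5.24 ± 0.20 (37.9-fold), also rank 2. Skin differed from spleen by -0.17 ± 0.20, with -0.48 on slide 1 and 0.15 on slide 2. Over the alternatives the difference between intestine and spleen ranged from 4.06 to 5.25. The second Cables1 probe (610253) was detected on no array, with signals from -4.08 to 1.85, so that the rise rests on 1 probe and the files do not say which transcripts either probe covers.

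The 5 genes with the profile most like that of Cables1 were Osgin1, Crem, B3galt5, Gcnt2 and Plac8. Likeness was the root mean square difference between log2 values centred on each gene's mean over the 6 arrays, and it was 0.21, 0.37, 0.38, 0.39 and 0.46 in that order. Osgin1, an oxidative stress-induced growth inhibitor, reached 570 and 705 in intestine and at most 4.06 in spleen and 4.95 in skin, and was detected in intestine alone. Crem, a cyclic AMP-responsive repressor and activator gene, gave 33.0 and 33.9, 1161 and 980, and 28.1 and 46.7. B3galt5 and Gcnt2 encode glycosyltransferases, and each was detected on 4 of the 6 arrays. Plac8 spread most in skin, with 13.7 and 56.5. The other kept probes of Crem (0.10 in intestine against spleen) and Gcnt2 (0.20 and 2.31) differed less than those that stand for them (4.68 and 4.72).

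**Figure D3:**
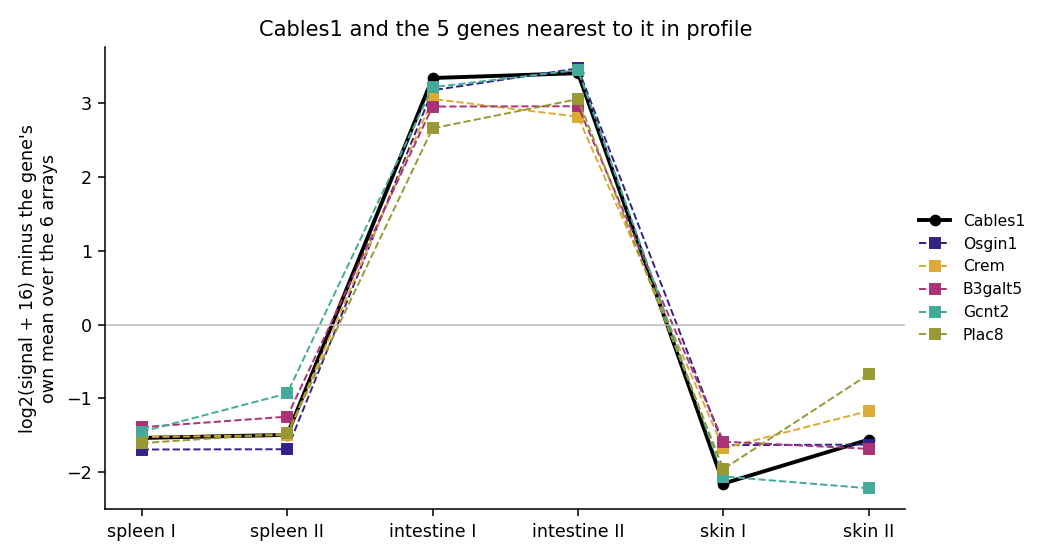
log2(signal + 16) of the deposited signals, minus each gene's own mean over the 6 arrays, for Cables1 (solid black) and the 5 genes nearest to it in profile; lines only join the points of one gene. In each gene both intestine arrays lie far above zero and the spleen and skin arrays below it, with the widest spread between genes on the second skin array.

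Among the CIP/KIP inhibitors, Cdkn1a (p21) measured 32.5 and 41.0 on the spleen arrays, 1108 and 712 on those of intestine, and 60.5 and 61.9 on those of skin at its first probe. The 3 tissues did not overlap, with intestine on top and skin above spleen. Intestine exceeded spleen by 4.36 ± 0.18 (20.5-fold, adjusted p = 1.85e-07 by limma), rank 11 of 13455, and skin by 3.57 ± 0.18 (11.9-fold, adjusted p = 6.68e-07). Both calls held under every one of the 18 alternatives tried. The intestine replicates themselves differed, and the difference from spleen was 4.74 on slide 1 and 3.98 on slide 2. Skin exceeded spleen by 0.79 ± 0.18 (adjusted p = 0.0149 by limma), a call lost without any 1 of the 4 spleen and skin arrays (adjusted p = 0.0541 to 0.142) and with an offset of 64 (0.0763). The second Cdkn1a probe gave 19.8 and 23.7, 571 and 380, and 22.3 and 35.0. It showed the same rise in intestine, by 3.90 ± 0.20 over spleen and 3.53 ± 0.20 over skin, and was called in both, as were 47.7% and 36.5% of the kept probes, but was not called between skin and spleen (0.37 ± 0.20, adjusted p = 0.188 over the kept probes, of which 22.8% were called).

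Cdkn1b (p27), a brake of resting lymphocytes, was not called against spleen in either tissue. Its signals were 150 and 144 on the spleen arrays, 116 and 128 on those of intestine, and 109 and 90.2 on those of skin. The deposited signals of intestine lay below those of spleen, whereas after quantile normalisation intestine lay above spleen by 0.19 ± 0.14 (95% interval -0.14 to 0.51, adjusted p = 0.304 by limma), so that no direction can be given. Skin differed from spleen by -0.23 ± 0.14 (-0.56 to 0.09), called under 1 of 18 alternatives (adjusted p = 0.0219). Intestine exceeded skin by 0.42 ± 0.14 (adjusted p = 0.0424), a call that held under 12 of 18 alternatives, with adjusted p-values up to 0.224. The second Cdkn1b probe was detected on no array.

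Both INK4 inhibitors were lower in intestine than in spleen. Cdkn2c (p18) measured 167 and 149 on the spleen arrays, 50.0 and 78.5 on those of intestine, and 190 and 212 on those of skin. Intestine was the lowest and skin the highest tissue, with no overlap. Intestine lay 0.71 ± 0.18 under spleen on the log2 scale (difference -0.71, adjusted p = 0.00807 by limma) and differed from skin by -1.28 ± 0.18 (adjusted p = 0.000323), which held under all 18 alternatives. The call against spleen was lost without the first spleen array (adjusted p = 0.0709). Skin exceeded spleen by 0.57 ± 0.18 (adjusted p = 0.0424) at this probe. The second Cdkn2c probe had the other sign there: with 87.4 and 74.4 on the spleen arrays, 18.6 and 26.5 on those of intestine, and 60.4 and 45.8 on those of skin, skin differed from spleen by -0.22 ± 0.17 (adjusted p = 0.344). It fell in intestine against spleen as the first probe did (-0.94 ± 0.17, adjusted p = 0.00138).

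Cdkn2d (p19) was highest in spleen, with 260 and 266, against 122 and 82.4 in intestine and 154 and 152 in skin. No array of intestine or skin reached those of spleen. The difference was -0.86 ± 0.17 in intestine (adjusted p = 0.00209 by limma), and this call held under all 18 alternatives. In skin it was -0.49 ± 0.17, which missed the threshold (adjusted p = 0.0566) and passed it under 9 of 18 alternatives (0.00827 to 0.245), the slide as a block among them (0.0405). Intestine and skin differed by -0.37 ± 0.17 (95% interval -0.74 to 0.00), called under 2 of 18 alternatives. The second Cdkn2d probe gave 47.5 and 44.6, 20.6 and 6.70, and 26.0 and 17.7, and was called in intestine against spleen too (-0.82 ± 0.25, adjusted p = 0.0221).

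D cyclins are the positive partners of Cdk4 and Cdk6, and the genes followed here include Ccnd2 and Ccnd3. Both were lower in intestine at the probe that stands for them. The remaining D cyclin, Ccnd1, was dim and rose in intestine over spleen (0.52 ± 0.13), as given with the pathway lists below. Ccnd3 (cyclin D3), known for its role in lymphocyte proliferation, gave 165 and 152 on the spleen arrays, 38.9 and 44.4 on those of intestine, and 115 and 91.4 on those of skin. The tissues did not overlap, and intestine was the lowest. The difference was -1.17 ± 0.15 against spleen (adjusted p = 0.000164 by limma) and -0.87 ± 0.15 against skin (adjusted p = 0.00124), and both held under all 18 alternatives. Skin lay below spleen by a difference of -0.30 ± 0.15, which was not called (adjusted p = 0.158) but passed under 2 of 18 alternatives (lowest adjusted p = 0.0125). A further probe, which the array annotation names 9230106B05Rik and the RefSeq table translates to Ccnd3, gave 49.4 and 38.4, 6.35 and 0.29, and 10.8 and 8.84. It is not among the 20 probes, and it fell in intestine (-1.39 ± 0.18) and in skin (-1.07 ± 0.18) against spleen.

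Ccnd2 (cyclin D2) was bright in every tissue, with 2614 and 2996 on the spleen arrays, 1950 and 1883 on those of intestine, and 2716 and 2409 on those of skin at its first probe. Intestine lay below both other tissues, which overlapped each other. Intestine differed from spleen by -0.62 ± 0.14 (adjusted p = 0.00534 by limma), but by -0.18 (adjusted p = 0.292) where arrays were scaled by their medians, and the call was also lost without the second spleen array (0.0809). Against skin the difference was -0.43 ± 0.14 (adjusted p = 0.0357), called under 9 of 18 alternatives. The 3 kept Ccnd2 probes disagreed. The second probe gave 1118 and 1130, 790 and 855, and 1229 and 1145, and was called in intestine against skin (-0.49 ± 0.14, adjusted p = 0.0192) but not against spleen (-0.33 ± 0.14, 0.0746). The third probe gave 195 and 183, 150 and 103, and 65.6 and 71.1, so skin, not intestine, was its lowest tissue. Its difference was -1.02 ± 0.16 in skin against spleen (adjusted p = 0.00415) and 0.90 ± 0.16 in intestine against skin (adjusted p = 0.00202), opposite to the first probe. Which transcripts these probes cover was not given in the sources used here.

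**Figure D4:**
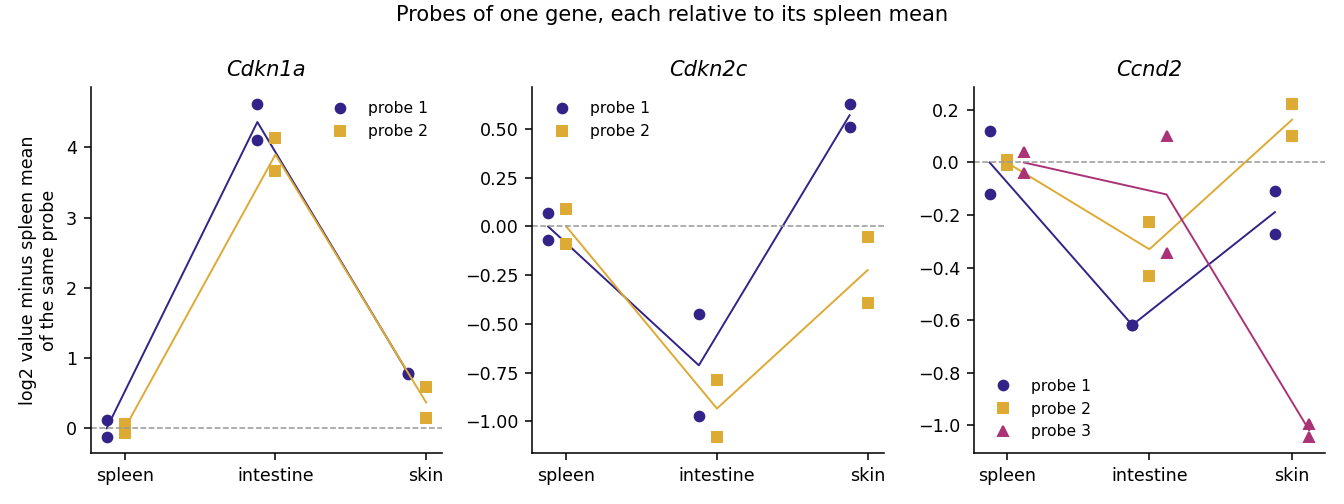
Normalised log2 values of the kept probes of Cdkn1a, Cdkn2c and Ccnd2 on the 6 arrays, each minus the spleen mean of its own probe; lines join tissue means and the vertical scales differ between panels. Both Cdkn1a probes stand on average 4.36 and 3.90 above spleen in intestine, the Cdkn2c probes part in skin (0.57 and -0.22), and the third Ccnd2 probe lies at -1.02 in skin.

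Ccng2 (cyclin G2), an atypical cyclin linked to cell cycle exit, rose in intestine, where the probes that stand for Ccnd2 and Ccnd3 fell against spleen. Its single probe gave 222 and 190 on the spleen arrays, 321 and 332 on those of intestine, and 129 and 120 on those of skin. The tissues did not overlap, with intestine on top and skin lowest. Intestine exceeded spleen by 0.97 ± 0.14 (adjusted p = 0.000330 by limma) and skin by 1.37 ± 0.14 (adjusted p = 4.88e-05), and both calls held under all 18 alternatives. Skin and spleen differed by -0.40 ± 0.14 (adjusted p = 0.0605), and this passed the threshold under 8 of 18 alternatives (adjusted p = 0.00612 to 0.372).

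Of the kinases, Cdk4 measured 215 and 203 on the spleen arrays, 99.8 and 103 on those of intestine, and 207 and 200 on those of skin. Both intestine arrays lay well below the other 4. Intestine differed from spleen by -0.53 ± 0.13 (adjusted p = 0.00733 by limma), a call lost without the first or the second spleen array (0.0798 and 0.0517), and from skin by -0.74 ± 0.13 (adjusted p = 0.00139), which held under all 18 alternatives. Within each slide the deposited signal of skin lay slightly under that of spleen, though the arrays of the tissues overlapped. After normalisation skin lay above spleen by 0.21 ± 0.13 (95% interval -0.08 to 0.50), so no direction can be given. The second Cdk4 probe gave 23.6 and 15.7, 12.8 and 5.17, and 30.5 and 20.7, and was called between intestine and skin only (-0.72 ± 0.21, adjusted p = 0.0236).

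Cdk6 was dim, with 9.50 and 9.92 on the spleen arrays, 11.0 and 13.1 on those of intestine, and 21.0 and 15.4 on those of skin, though detected on all 6 arrays. Skin stood highest without overlap, but no comparison was called, and the offset of 16, larger than most of these signals, shrinks its differences. They were 0.19 ± 0.13 in intestine against spleen (95% interval -0.11 to 0.49), 0.39 ± 0.13 in skin against spleen (0.09 to 0.69, adjusted p = 0.0586 by limma) and -0.20 ± 0.13 in intestine against skin (-0.50 to 0.10). With median scaling the first was 0.48 (adjusted p = 0.0121). The second was called under 5 of 18 alternatives (adjusted p = 0.00616 to 0.278), with 0.63 under median scaling.

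The other genes of the pathway were taken from 8 lists of 124 genes, of which 98 could be tested. In intestine 23 rose and 35 fell against spleen. In skin 44 rose and 3 fell against spleen. Against skin, 18 were higher and 48 lower in intestine. Over all genes, 21% were higher and 28.3% lower in intestine against spleen, 13.1% were higher and 11.4% lower in skin against spleen, and 16.4% were higher and 22.9% lower in intestine against skin. Leaving out the first or the second spleen array left 33 and 31 calls in place of 58 in intestine against spleen, and 21 and 24 in place of 47 in skin against spleen, where leaving out the first skin array left 31.

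Genes of mitosis were high in skin and low in intestine. Of 19 tested, 13 fell and 2 rose in intestine against spleen (median -0.73), 17 rose in skin against spleen (median 1.13), and 16 were lower and 1 higher in intestine than in skin (median -1.64, against -0.08 over all genes). Over all genes, 49.3%, 24.5% and 39.3% were called in these comparisons. Birc5, the survivin gene of the chromosomal passenger complex, measured 54.9 and 60.2 on the spleen arrays, 12.7 and 6.94 on those of intestine, and 193 and 154 on those of skin. The tissues did not overlap, and intestine differed from skin by -2.85 ± 0.19 (adjusted p = 2.99e-06 by limma). Mki67, the Ki-67 proliferation antigen, rose in skin over spleen by 1.78 ± 0.21 (adjusted p = 0.000874), and Prc1, a midzone microtubule bundler, by 1.59 ± 0.15. Nusap1, a spindle protein, differed by -1.33 ± 0.15 in intestine against spleen. Cenpa, the centromeric histone H3 variant, went the other way, from 467 and 532 in spleen to 1462 and 1538 in intestine (1.69 ± 0.14, adjusted p = 1.11e-05). Without the second spleen array 7 in place of 13 genes fell in intestine against spleen, and without the first 9 in place of 17 rose in skin.

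Replication genes were mostly higher in skin than in either other tissue. Of 21 tested, 13 rose in skin against spleen, 6 fell and 2 rose in intestine against spleen, and 15 were lower in intestine than in skin. Over all genes, 24.5%, 49.3% and 39.3% were called in these comparisons. Tk1, the cytosolic thymidine kinase, gave 30.4 and 34.5 on the spleen arrays, 9.13 and 14.7 on those of intestine, and 106 and 95.1 on those of skin. Skin stood above and intestine below spleen, and intestine differed from skin by -2.01 ± 0.14 (adjusted p = 5.33e-06 by limma). Mcm5, a subunit of the replicative helicase, rose by 1.19 ± 0.13 in skin over spleen, and Mcm4 differed by -0.78 ± 0.15 in intestine against spleen. In intestine against spleen 13 genes of the list were not called, its median was -0.06 against -0.04 over all genes, and leaving out either spleen array left 2 falls and 0 rises. The median there was 0.0078 without the first spleen array. In skin against spleen, 8 or 5 genes rose without the first or second spleen array and 7 without the first skin array.

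Among 11 pocket protein, E2F and DREAM genes, 3 rose and 5 fell in intestine against spleen, 5 rose in skin against spleen, and 3 were higher and 6 lower in intestine than in skin. The shares called over all genes were 49.3%, 24.5% and 39.3%. E2f2, an activator of S phase genes, gave 122 and 146 in spleen and 180 and 232 in skin and was not detected in intestine, at least 5.38-fold lower than spleen (adjusted p = 1.46e-06 by limma) and at least 9.53-fold lower than skin. Its other kept probe differed less, by -1.07 against spleen and -1.83 against skin. Rb1, the retinoblastoma gene, rose in intestine by 1.30 ± 0.14 and in skin by 0.86 ± 0.14 over spleen, from 50.5 and 55.0 to 108 and 113 and to 95.8 and 80.7. Lin54, the DNA-binding subunit of the DREAM complex, rose by 2.23 ± 0.17 in intestine over spleen. E2f1 rose by 1.54 ± 0.14 in skin over spleen. Without either spleen array 2 in place of 5 genes of this list fell in intestine. Leaving out 1 spleen or skin array left 1 to 3 of the 5 rises in skin. In intestine against skin, leaving out either spleen array or the second skin array left 1 gene higher in place of 3.

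The factors that act on G1 regulators were mostly higher in intestine. Of 14 tested, 10 rose and 1 fell against spleen (median 0.71), and 8 were higher than in skin. Over all genes, 21% rose and 28.3% fell in intestine against spleen, and 16.4% were higher in intestine than in skin. In skin against spleen, 13.1% of all genes rose and 11.4% fell. Klf4, which induces p21, gave 4.69 and 12.0 on the spleen arrays, 294 and 96.4 on those of intestine, and 60.3 and 48.8 on those of skin. Its arrays spread widely in intestine without overlapping the other tissues, and it rose over spleen by 3.09 ± 0.35 (adjusted p = 7.85e-05 by limma). Cebpb, a leucine zipper factor, rose by 2.62 ± 0.18, and Myc by 1.94 ± 0.25, from 22.1 and 24.3 to 152 and 68.7. Trp53, the gene of p53, and Foxo1, a forkhead factor, lie outside the rule for named genes and were picked after their values were seen: against spleen, they rose in intestine by 0.57 ± 0.14 (adjusted p = 0.00674) and 0.96 ± 0.13 (adjusted p = 0.000284). In skin, 4 genes of the list rose and 1 fell against spleen, with Klf6, a zinc finger factor, up by 1.22 ± 0.21, and without either spleen array 2 rose and 0 fell. Without the first spleen array 6 in place of 10 genes rose in intestine.

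A further 3 CDK inhibitor genes were tested. Cdkn1c (p57) rose in intestine from 39.9 and 39.6 in spleen to 172 and 92.7 (1.76 ± 0.22, adjusted p = 0.000152 by limma). Cdkn3, a phosphatase of Cdk2, differed by -0.91 ± 0.19 in intestine and 1.43 ± 0.19 in skin against spleen. Cdkn2b (p15) was not called in any comparison.

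Of 12 further cyclins, kinases and partners, 3 rose and 4 fell in intestine against spleen, 1 fell in skin, and 3 were higher and 2 lower in intestine than in skin. This list is wider than G1 and also holds Ccnc, Ccnh, Ccnt1, Cdk5, Cdk7, Cdk9 and Mnat1. The overall shares in intestine against spleen were 21% higher and 28.3% lower. Leaving out the first spleen array left 0 rises and 1 fall there, leaving out the second 1 and 0, and in intestine against skin leaving out either spleen array or the first skin array left 1 gene higher. Ccnd1 (cyclin D1) rose in intestine over spleen by 0.52 ± 0.13 (adjusted p = 0.00982 by limma), from 8.84 and 12.0 to 17.5 and 18.7. Ccne1 (cyclin E1) was not detected in intestine, at least 1.28-fold lower than spleen. Ccng1 (cyclin G1), a p53 target and paralogue of Ccng2, was lower in intestine than in skin by a difference of -0.71 ± 0.19 at its brightest probe, and differed by 0.03 and 0.04 at its other probes. Of the 5 tested partners of Cables1 or Abl, Cdk2 rose by 0.46 ± 0.15 and Cdk5 fell (-0.49 ± 0.18, adjusted p = 0.0485) in intestine against spleen. Neither was called without the first spleen, the second spleen or the second intestine array, or with no filter on dim probes. No gene of this list fell with limma-trend, an offset of 64, detection p under 0.05 or the mean of a gene's probes. With the deposited scaling alone no gene of the list rose. Cdk5r1, the p35 activator of Cdk5, was higher in intestine than in skin by 1.23 ± 0.18 (adjusted p = 0.000473). The paralogue Cables2 was not called in any comparison. Cables2 gave 100 and 98.3 on the spleen arrays, 58.6 and 51.3 on those of intestine, and 69.0 and 79.6 on those of skin, with a difference of -0.27 ± 0.13 in intestine against spleen, with both intestine arrays below those of spleen.

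The ubiquitin ligases and phosphatases of G1 gave 2 higher and 5 lower of 15 in intestine against spleen, 4 higher in skin against spleen, and 1 higher and 8 lower in intestine than in skin. Over all genes 49.3%, 24.5% and 39.3% were called in these comparisons, and the first 2 counts of this list lie near those shares. Of the 4 in skin, leaving out either spleen array left 0, the first skin array 1 and the second 2. Leaving out the second spleen array reduced the 5 to 3, and leaving out any array but the second of intestine reduced the 8 to 5. Fbxo31, an F-box protein that targets cyclin D1, differed by -1.72 ± 0.15 in intestine against spleen, but by -0.45 to -0.07 at its other probes. Rbx1, the RING subunit of cullin ligases, differed by -1.41 ± 0.16, and -1.82 at its other probe. Cul1, their scaffold, rose by 1.09 ± 0.14 at its brightest probe and differed by -0.05 at the other.

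**Figure D5:**
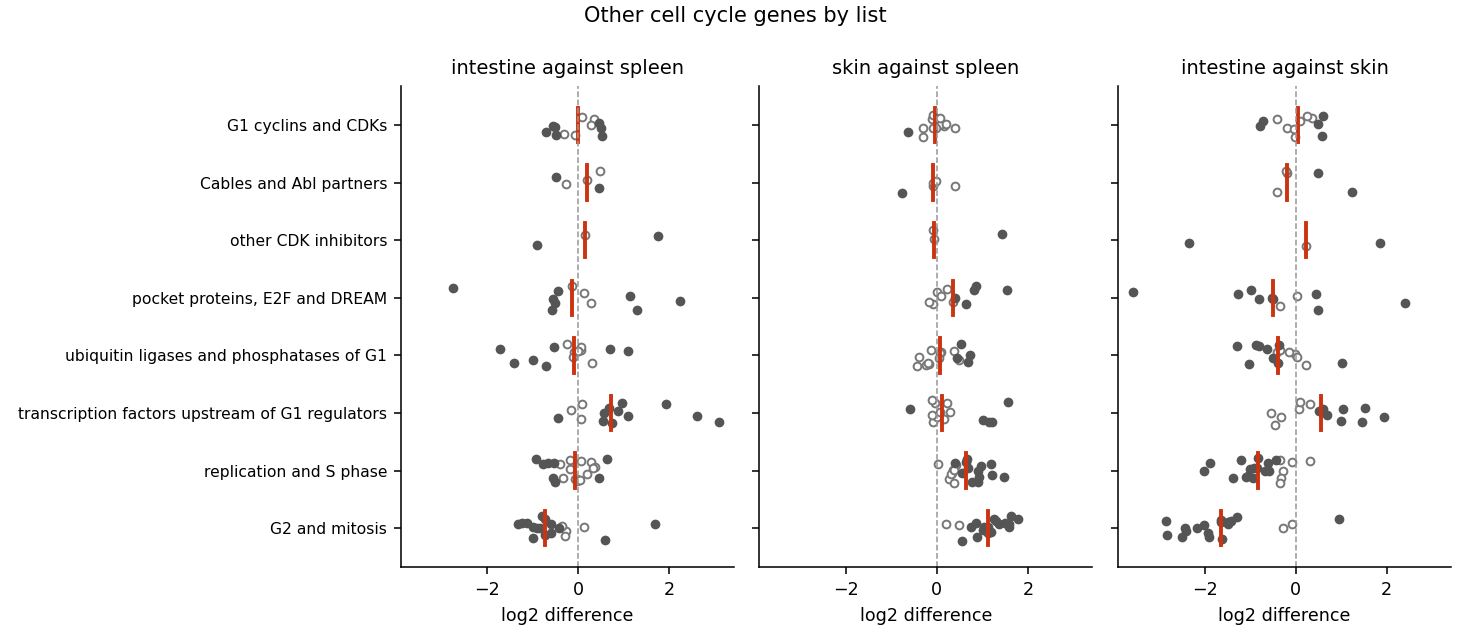
Difference in log2(signal + 16) of each tested gene of the 8 pathway lists in the 3 comparisons; filled points were called, open points were not, and the red bar is the median of the list. In skin against spleen the mitosis list has its median at 1.13, and in intestine against skin at -1.64.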

How the data were processed

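Biotin-labelled cRNA was made from column-purified RNA, per the labels' protocols, and BeadStudio 1.5.1.3 is named in the submitters' processing notes. Per the file headers, the deposited tables give each probe's average bead intensity and a detection p-value. From the values, intensities had been background-subtracted (30.7% to 32.7% of probes lie below 0) and scaled, so that every array has a mean of 83.1. No source used here describes either step. The factor between an unscaled series table and the scaled signals was 1.65 and 1.58 for spleen, 0.995 and 0.612 for intestine, and 0.526 and 0.643 for skin, so dim probes are measured less well in intestine and skin.

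An offset of 16 was added, the log2 taken and the arrays quantile normalised in limma 3.58.1 (R 4.3.3). Kept were 18583 probes, 18187 with a symbol, whose detection p was under 0.01 for both replicates of any tissue. Older symbols (12968 of 46643 probes) were translated through RefSeq (GRCm38.p6). Each of 13455 genes was represented by its probe of highest mean. lmFit and eBayes were fitted to all 6 arrays with a mean per tissue (3 residual degrees of freedom) and Benjamini-Hochberg adjustment, threshold 0.05. The fit was tested on simulated data. A probe detected on no array of a tissue gives a bound, from the lowest detected signal of those arrays or its own value if higher.

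The genes and lists were chosen with earlier results of these data known. Named were the 10 genes with every probe, up to 3 called genes per list and comparison with the largest differences (a part of them is given, picked with their values in sight), and the 5 profiles nearest to Cables1. Replicate numbers pair the arrays through the slide, read from array names: replicate differences of 2 tissues correlated at 0.157 (spleen and intestine), 0.210 (spleen and skin) and 0.114 (intestine and skin) over genes. Alternatives were the scaling, offset, filter, probe choice, replicate block, limma-trend and each array left out. Their use on list counts and further probes was chosen after seeing the data.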

Additional observations from a re-analysis of the deposited data

How the results depend on the processing

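The 30 differences of the 10 genes were compared with their values under the alternatives and within each slide. Of these values, 497 stayed the same, 32 lost and 28 gained the call. A further 37 values, all without a test, moved by more than the replicate spread. For tested values, the same means an unchanged direction and side of the threshold. For Cables1 and the values within a slide, which have no test, it means an unchanged direction and a move smaller than that spread. The count of called genes of the 9 in skin against spleen was 2, and 6 with the deposited scaling alone, 5 with median scaling, 4 with an offset of 32, 1 with no filter on dim probes, 5 with probes detected on all 6 arrays and 4 with limma-trend. With no filter 1826 genes were called in that comparison, against 3300. Leaving out 1 array at a time gave 0 to 5 of these genes there, and 5 to 7 in each of the other comparisons. Over all genes it gave 4008 to 6705 calls in intestine against spleen, 452 to 4774 in skin against spleen and 3989 to 5726 in intestine against skin. Of the pathway genes it left 31 to 58, 21 to 56 and 53 to 68 called. With the slide as a replicate block 7110, 3999 and 5703 genes were called in place of 6630, 3300 and 5282. Among the 9 genes this pairing added the call of Cdkn2d in skin against spleen (adjusted p = 0.0405) and changed no other.

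Directions turned in these cases, none of them called in the main setting, and the cause was not tested. With the deposited scaling alone Cdkn1b was -0.24 in intestine against spleen and Cdk4 -0.039 in skin against spleen. Ccnd2 in skin against spleen was 0.10 with median scaling and 0.012 within slide 1. Cables1 in skin against spleen ran from -0.51 to 0.18 as 1 array was left out (0.18 without the first skin array) and was 0.15 within slide 2. Leaving out 1 array, the third Ccnd2 probe ran from -0.35 to 0.10 in intestine against spleen, and the second Cdkn2d probe from -0.78 to 0.11 in intestine against skin, with the positive values without the second intestine array. With 2 arrays a tissue, their number limits the precision, and dim probes such as that of Cdk6 are limited by signal over background.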
